A study of Mus musculus with 3 samples.

Results

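Mpo, Elane, Prtn3, Ctsg and Ms4a3 are genes of the early granulocyte and monocyte lineage, and they were chosen by their symbols in all 3 libraries. They are 5 of the 56980 genes in the files, and each symbol belongs to 1 Ensembl identifier: ENSMUSG00000009350 for Mpo, ENSMUSG00000020125 for Elane, ENSMUSG00000057729 for Prtn3, ENSMUSG00000040314 for Ctsg and ENSMUSG00000024681 for Ms4a3. Their working name calls them primary granule proteases, but Elane, Prtn3 and Ctsg are the 3 serine proteases among them, whereas Mpo is a haem peroxidase and Ms4a3 a membrane protein. They are called the primary granule genes here as a short name, in which Ms4a3 is included as a marker of the lineage and not as granule content.

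Single cells of mouse bone marrow were sequenced on a 10x Genomics platform 14 days after irradiation, to ask how cannabidiol (CBD) affects blood formation after radiation injury. The mice were C57BL/6 and, by the study's methods, male; their exact age is not given. Control mice were not irradiated, IR mice received 6.0 Gy of cobalt-60 gamma rays with solvent, and IR+CBD mice received the same dose with CBD injected into the peritoneum in soybean oil with DMSO before and after irradiation. Each group is 1 library made from 3 pooled mice, in which Lin-Kit+, Lin-Kit- and Lin+ cells had been mixed at 5:4:1, so the share of a cell type reflects the mixture that was loaded as well as the marrow.

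Primary (azurophilic) granules are filled early in granulocyte development, when promyelocytes make the proteases and the peroxidase that neutrophils later use against microbes. Transcription of these genes is strong in granulocyte-monocyte progenitors and promyelocytes and is shut off as cells mature, while the genes of secondary and tertiary granules come on later. Ms4a3 is known as a marker of granulocyte-monocyte progenitors and their descendants.

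After the filters of at least 200 genes and at most 5% mitochondrial UMIs (unique molecular identifiers, the counts of single RNA molecules), 10674 cells were kept in Control, with 10345 in IR and 10273 in IR+CBD. The kept cells held 194839224, 202361682 and 173466089 UMIs, with medians of 12480, 14211 and 12502 UMIs per cell. Control and IR had 26 kept barcodes in common, Control and IR+CBD 28, and IR and IR+CBD 34, with 0 in all 3 libraries. Levels are given as CPM, the UMIs of a gene per 1000000 UMIs summed over all cells of a library or gate. There are no replicate libraries, so no test was possible, and all 95% intervals cover counting error only, not the spread between mice. A gene counts as higher or lower here when its CPM ratio is at least 25% above 1 or at least 20% below 1 and the libraries compared hold at least 200 UMIs of it.

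In all kept cells the 5 genes were lowest in IR and highest in IR+CBD. Mpo, which makes hypochlorous acid from hydrogen peroxide, stood at 2058 CPM in Control (95% interval 2052 to 2065), with 1902 in IR (1896 to 1908) and 2214 in IR+CBD (2207 to 2221). Its IR over Control ratio was 0.924 (0.920 to 0.928) and its IR+CBD over IR ratio 1.16 (1.16 to 1.17). The IR library was thus the low one and IR+CBD the high one, with intervals that did not overlap.

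Elane, which encodes neutrophil elastase, was at 1768 CPM in Control, with 1644 in IR and 2135 in IR+CBD. IR+CBD stood above both other libraries, by 1.30 (1.29 to 1.30) over IR and 1.21 over Control, and the IR over Control ratio was 0.930 (0.925 to 0.934). Prtn3, the gene of proteinase 3, was at 3565, 3149 and 3656 CPM in the same order, with ratios of 0.883 (0.880 to 0.886) for IR over Control and of 1.16 (1.16 to 1.17) for IR+CBD over IR. Here Control and IR+CBD were close and IR was low. Ctsg, which encodes cathepsin G, was at 1957 CPM in Control, with 1751 in IR and 2103 in IR+CBD, and its ratios were 0.895 (0.891 to 0.899) and 1.20 (1.20 to 1.21). Ms4a3 was at 670, 573 and 688 CPM, with ratios of 0.856 (0.849 to 0.863) and 1.20 (1.19 to 1.21). For these last genes as well IR was the low library, and the ratio of IR+CBD to Control was 1.03 for Prtn3, 1.07 for Ctsg and 1.03 for Ms4a3.

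In all cells 0 of the 5 genes passed the fold rule for IR over Control, against 25.8% of 15828 genes tested, and their median log2 ratio was -0.16 beside -0.05 for all genes. In IR+CBD over IR, Elane alone passed, which is 1 of 5, against 9.12% of 15520 genes, and the median log2 ratio was 0.26 beside 0.00. The direction of the IR over Control ratio depended on how cells were weighted. With the mean of single-cell CPM the median log2 ratio was 0.12, with cells thinned to 2000 UMIs 0.14, with the CPM of B cells subtracted 0.02, and with gates weighted by Control shares of UMIs 0.08. Without the cells of 8 other lineage gates, a choice made after seeing the data, it was 0.20. The IR+CBD over IR median was positive under every setting run, from 0.16 to 0.40, but the number of genes past the fold rule varied. Elane was at 1.20 without the lineage gates, so 0 of 5 passed, against 8.77% of 13895 genes. It was at 1.24 with gates weighted by Control shares, so 0 of 5 passed there too. By contrast 5 of 5 passed with the mean of single-cell CPM, at 1.28 to 1.41, and with thinned cells, at 1.31 to 1.41. The share of all genes was not computed, here or below, for the mean of single-cell CPM, thinned cells, subtracted CPM or weighted gates.

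The mixture of cells differed between the libraries. Erythroid cells (at least 2 Klf1 UMIs) were 5.49% of cells in Control, with 14.0% in IR and 11.5% in IR+CBD, and B cells (at least 5 Cd79a UMIs) were 25.7%, 32.0% and 24.5%. All 7 erythroid markers had UMIs in every library, and their summed level was 680, 1396 and 1398 CPM, with Car1 the most abundant at 462, 622 and 725 CPM. All 6 B-cell markers also had UMIs in every library, with sums of 1146, 1109 and 1043 CPM and Ighm the most abundant at 565, 384 and 465. Sums were 528, 275 and 317 CPM for the 8 stem and multipotent markers and 88.0, 34.5 and 53.6 for the 5 of megakaryocytes. The 6 mature neutrophil markers summed to 12400, 12501 and 15535 CPM, highest in IR+CBD like the primary granule genes. The part of these cells in the ratios of the primary granule genes was not tested beyond the weighting and the exclusion given above.

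Cells were also taken in 6 gates of raw UMIs, which may overlap. They are Cd34+Adgrl4+ (at least 1 UMI of each), Ms4a3+F13a1- (at least 1 Ms4a3 UMI and 0 of F13a1), F13a1+ (at least 2), Fcnb+ (at least 10), Ltf+ (at least 20) and Retnlg+ (at least 5). Markers that the gates did not use were read against all cells of the same library. For the Fcnb+, Ltf+ and Retnlg+ gates 5 of 5 markers of neutrophil precursors, immature and mature neutrophils were at least 2-fold higher in all 3 libraries. In F13a1+ cells 3 of 7 monocyte markers passed, Csf1r, Ccr2 and Ms4a6c. In Ms4a3+F13a1- cells 1 of 5 progenitor markers passed, Cebpe, and in Cd34+Adgrl4+ cells 0 of 6 stem cell markers did, so these gates are named by their genes alone. The 5 progenitor markers Cebpa, Cebpe, Gfi1, Gstm1 and Nkg7 summed to 501, 473 and 583 CPM in all cells of Control, IR and IR+CBD, with Nkg7 the most abundant, and so had the same order of libraries as the primary granule genes.

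Cd34+Adgrl4+ cells were 29.2% of Control cells, 18.9% of IR cells and 19.2% of IR+CBD cells. Ms4a3+F13a1- cells were 24.8%, 19.5% and 24.5%, which is an IR over Control ratio of 0.787 (0.742 to 0.834), while IR+CBD was close to Control at 0.987 (0.935 to 1.04). This depended on the threshold. With doubled thresholds the shares were 11.4%, 10.9% and 14.3%, so IR was then close to Control and IR+CBD stood above both. With gates on scaled UMIs they were 17.3%, 13.7% and 18.6%. The share of F13a1+ cells was alike, at 19.5%, 19.6% and 19.5%. Of F13a1+ cells 52.8%, 51.7% and 46.2% were also Cd34+Adgrl4+, and of Fcnb+ cells 74.6%, 78.6% and 77.3% were also Ms4a3+F13a1-.

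With overlapping gates, each of the 5 genes reached its highest level in F13a1+ cells in all 3 libraries. Mpo there stood at 3423 CPM in Control, with 3748 in IR and 4144 in IR+CBD. Cd34+Adgrl4+ cells came next, at 82.2%, 90.6% and 85.5% of the F13a1+ level, and Fcnb+ cells held 34.7%, 30.8% and 33.1% of it. Mpo was lowest in Ltf+ cells, at 680, 546 and 559 CPM.

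**Figure D1:**
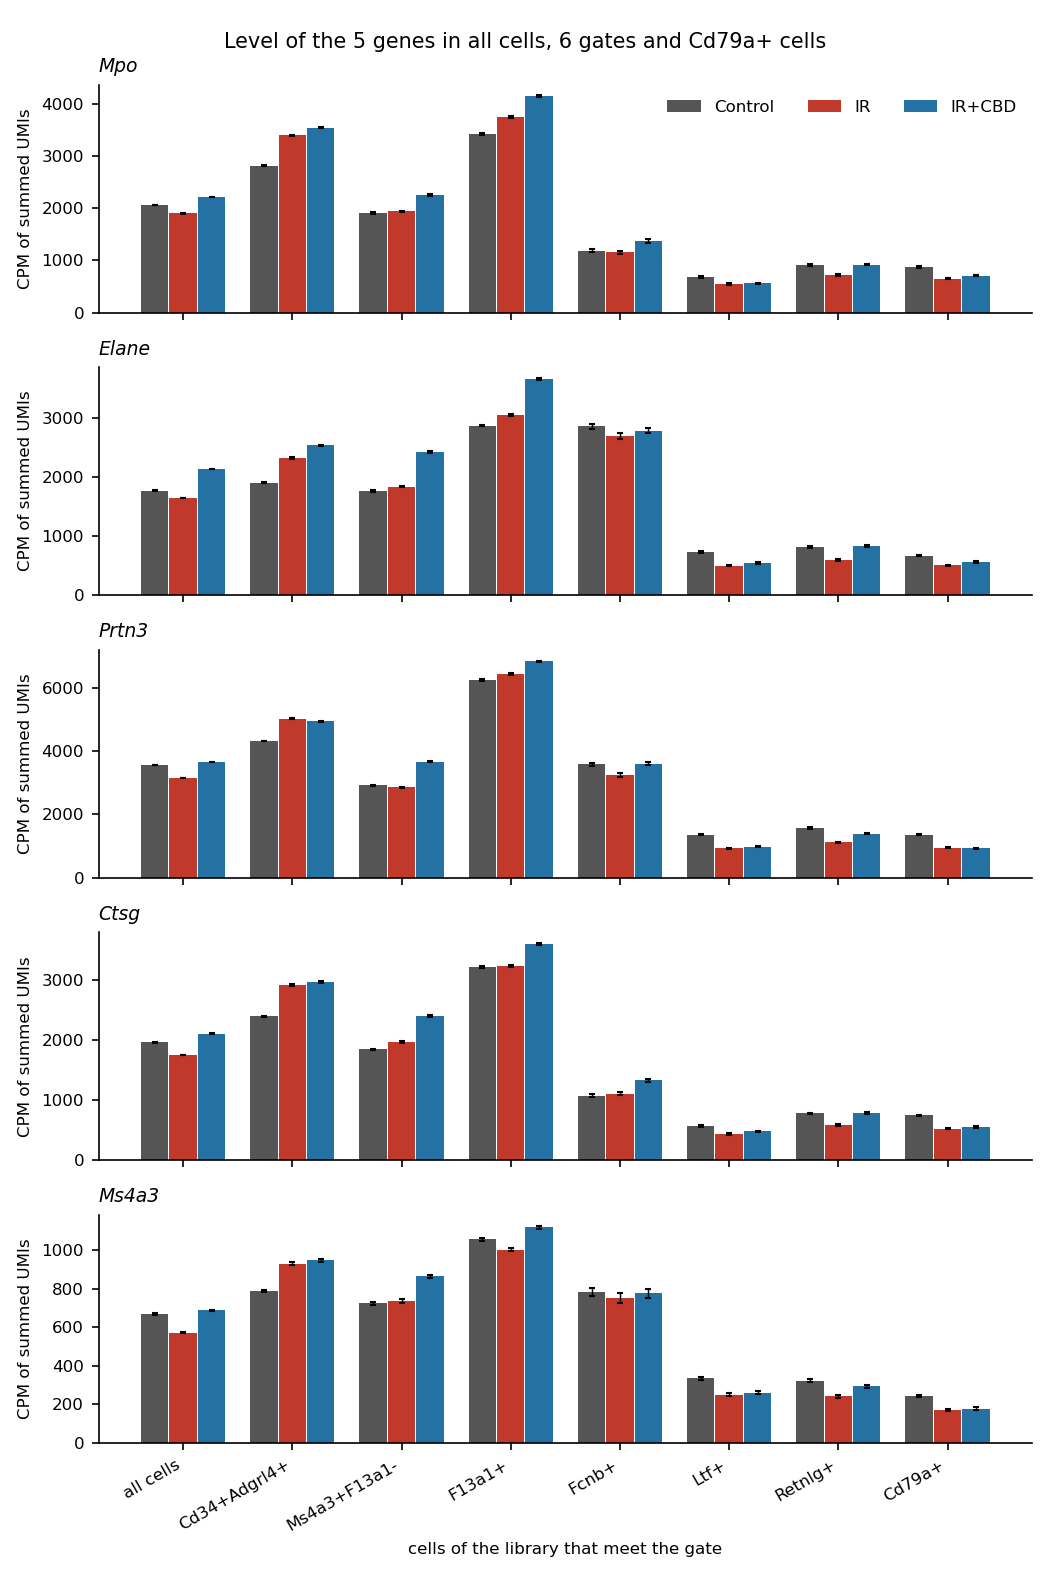
Level of each primary granule gene in CPM in all cells, the 6 gates and B cells, for the Control, IR and IR+CBD libraries. F13a1+ cells hold the highest level of each gene in each library, and with predicted doublets kept Ltf+ and Retnlg+ cells lie near the B cells.

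The serine proteases differed among themselves in how far they reached into Fcnb+ cells. Elane in F13a1+ cells was at 2869, 3056 and 3662 CPM, and its Fcnb+ level was 99.8%, 88.2% and 76.1% of that. Prtn3 in F13a1+ cells was at 6246, 6437 and 6839 CPM, and its Fcnb+ level was 57.4%, 50.4% and 52.7% of that. Ctsg in F13a1+ cells was at 3208, 3223 and 3591 CPM, and its Fcnb+ level was 33.4%, 34.4% and 36.9% of that. Relative to its own maximum, Elane was thus kept most in Fcnb+ cells and Ctsg least of the 3 proteases, close to Mpo. Ms4a3 in F13a1+ cells was at 1059, 1004 and 1120 CPM, and its Fcnb+ level was 74.0%, 75% and 69.3% of that.

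The order of the gates depended on their overlap. With each cell placed in 1 gate only, the last it met in the order above, Fcnb+ kept 59, 47 and 72 cells, and these held 8331, 10004 and 8930 CPM of Elane. The F13a1+ cells then held 2862, 3059 and 3651 CPM of it. Prtn3 in the same Fcnb+ cells was at 9183, 11441 and 11121 CPM, against 6308, 6491 and 6878 in F13a1+ cells, and Ms4a3 at 1716, 2032 and 1883, against 1064, 1008 and 1124. So Elane, Prtn3 and Ms4a3 were then highest in Fcnb+ cells without Ltf and Retnlg above the thresholds. Mpo in these Fcnb+ cells stood at 3208, 4057 and 4358 CPM beside 3457, 3776 and 4156 in F13a1+ cells, and Ctsg at 2883, 4070 and 4447 beside 3258, 3259 and 3606, so for both the order in Control differed from that in IR and IR+CBD. With gates on UMIs scaled to 10000 per cell, Ctsg stood at 2926, 3278 and 3738 CPM in Ms4a3+F13a1- cells, above the 2629, 2847 and 3031 of F13a1+ cells, and Elane at 2889, 3120 and 3847, above 2355, 2644 and 3080.

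The 1978, 1965 and 1911 F13a1+ cells of this division carried much of the RNA of these genes. They held 60.6% of Mpo UMIs in Control, with 63.0% in IR and 55.8% in IR+CBD, against 36.1%, 31.7% and 29.7% of all UMIs. For Elane the shares were 58.4%, 59.1% and 50.8%, for Prtn3 63.8%, 65.4% and 55.9%, for Ctsg 60.1%, 59.1% and 50.9%, and for Ms4a3 57.3%, 55.8% and 48.5%. In each case IR+CBD had the lowest share.

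UMIs of these genes were also found in cells that should lack them. A Mpo UMI was seen in 93.8%, 93.9% and 94.9% of F13a1+ cells, whose median depths were 35870, 31927 and 25605 UMIs. It was also seen in 59.2%, 38.4% and 42.6% of B cells, at median depths of 4470, 4009 and 3527. After each cell was thinned to 2000 UMIs, the shares were 81.7%, 85.7% and 88.2% of F13a1+ cells and 32.3%, 20.3% and 24.5% of B cells, so F13a1+ cells stayed far above this background at equal depth. Ltf+ cells had Mpo in 66.3%, 52.6% and 52.1% of cells before thinning and in 22.6%, 17.3% and 16.8% after it, at or below the B cells. Retnlg+ cells after thinning had it in 26.2%, 19.6% and 21.2%, also at or below the B cells in each library.

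Prtn3 was the most widely detected of the 5, with a UMI in 83.5%, 65.4% and 70.6% of all cells and in 71.3%, 44.9% and 49.6% of B cells. After thinning, 89.2%, 92.0% and 92.4% of F13a1+ cells and 42.5%, 24.6% and 29.4% of B cells had one. Ms4a3 was seen in 25%, 15.2% and 17.6% of B cells, and in 12.4%, 7.54% and 9.54% after thinning. For all 5 genes the share of B cells with a UMI was highest in Control and lowest in IR.

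Among Cd34+Adgrl4+ cells, IR and IR+CBD were both above Control. Mpo was at 2812 CPM in Control, with 3395 in IR and 3543 in IR+CBD, which gives ratios of 1.21 (1.20 to 1.21) for IR over Control and of 1.04 for IR+CBD over IR. Elane was at 1905, 2324 and 2537 CPM, with ratios of 1.22 (1.21 to 1.23) and 1.09. The irradiated libraries were the high ones for both genes. Prtn3 was at 4321, 5026 and 4947 CPM, Ctsg at 2393, 2909 and 2962, and Ms4a3 at 788, 930 and 948, again with Control low and the irradiated libraries close to each other.

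In these cells 0 of the 5 genes passed the fold rule for IR over Control, against 19.4% of 13239 genes, with ratios of 1.16 to 1.22 and a median log2 ratio of 0.27 beside -0.04 for all genes. This count depended on the setting. Likewise 0 of 5 passed for IR+CBD over IR, against 8.56% of 12393 genes, with a median of 0.03 beside 0.01. More of the IR cells in this gate were also F13a1+, 35.3% in Control, with 53.8% in IR and 47.0% in IR+CBD. With each cell in 1 gate only, this gate loses the cells that also met a later one, such as Ms4a3+F13a1- and F13a1+ cells. It then kept 1117, 347 and 424 cells. For IR over Control Mpo was then at 1.53, Elane at 1.85, Prtn3 at 1.64 and Ctsg at 1.85, while 22.2% of 9865 genes passed. Ms4a3 was at 1.86, but only cells with exactly 1 F13a1 UMI can then hold it. Mpo, Elane, Prtn3 and Ctsg followed Ms4a3 over the cells of the whole gate, with a Pearson r of 0.83 to 0.90 in Control. Removing cells by Ms4a3 thus also removes cells high in these genes, so none of these IR over Control ratios is counted as a call. With gates on UMIs scaled to 10000 per cell 5 of 5 passed, against 20.3% of 11436 genes, at 1.37 to 1.62. The ratios were 1.51 to 1.60 with the mean of single-cell CPM, up to 1.64 with thinned cells and 1.38 to 1.47 with the CPM of B cells subtracted. Without predicted doublets 2 of 5 passed, against 19.6% of 12605 genes. Under each of these settings 0 of 5 passed for IR+CBD over IR. The summed level of the 8 stem and multipotent markers in the gate was 952, 665 and 799 CPM, all 8 with UMIs and Adgrl4 the most abundant at 384, 231 and 287. These 8 include Cd34 and Adgrl4, which define the gate. Other sums moved too. They were 554, 685 and 757 CPM for progenitor markers, 1220, 1537 and 1175 for monocytes and 105, 202 and 187 for erythroid cells. Eosinophil markers summed to 171, 261 and 166 CPM, and megakaryocyte markers to 76.3, 25.5 and 30.4. The part of these cells in the ratios was not tested beyond the removal of the lineage gates, where IR over Control was 1.19 to 1.24.

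Among Ms4a3+F13a1- cells, IR+CBD stood above the other libraries, which were close to each other. Elane was at 1761 CPM in Control, with 1835 in IR and 2426 in IR+CBD, with ratios of 1.04 (1.03 to 1.05) for IR over Control and of 1.32 (1.31 to 1.33) for IR+CBD over IR. Prtn3 was at 2917, 2853 and 3665 CPM, with ratios of 0.978 (0.971 to 0.986) and 1.28 (1.28 to 1.29). These proteases were the ones that rose in IR+CBD over IR. Ctsg was at 1842, 1965 and 2391 CPM, with ratios of 1.07 (1.06 to 1.08) and 1.22 (1.21 to 1.23). Mpo was at 1909, 1941 and 2254 CPM, with ratios of 1.02 (1.01 to 1.03) and 1.16 (1.15 to 1.17). Both had IR+CBD as the high library without passing the fold rule over IR, and over Control their ratios were 1.30 and 1.18. Ms4a3, which defines the gate, was at 724, 737 and 865 CPM.

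Without Ms4a3, for IR over Control in these cells 0 of 4 genes passed, against 20.4% of 11982 genes, with a median log2 ratio of 0.04 beside -0.03 for all genes. Elane and Prtn3, 2 of 4, passed for IR+CBD over IR, against 6.60% of 11745 genes, with a median of 0.32 beside -0.03. Under every setting run this second median was positive, from 0.23 to 0.42, but not every setting kept the calls. With gates on scaled UMIs Elane was at 1.23 and Prtn3 at 1.20, so 0 of 4 passed, against 6.60% of 10633 genes. Without the cells of the 8 lineage gates they were at 1.20 and 1.18, so 0 of 4 passed, against 6.02% of 10521 genes. With doubled thresholds Elane passed at 1.26 and Prtn3 did not at 1.23, which is 1 of 4, against 6.10% of 10673 genes. For IR over Control 4 of 4 passed with the mean of single-cell CPM, at 1.35 to 1.43, and with thinned cells, at 1.33 to 1.48, where Prtn3 too was above 1. These counts have no share of all genes beside them. The B-cell markers in this gate summed to 855, 561 and 586 CPM, with all 6 present and Ighm the most abundant at 416, 193 and 266. Markers of other cells, each list with UMIs of all its genes, moved in this gate as well. The 6 mature neutrophil markers summed to 21533, 22135 and 26538 CPM, with S100a8 the most abundant at 20677, 21355 and 25523. Sums were 492, 873 and 595 CPM for the 5 eosinophil markers, with Prg2 the most abundant at 408, 748 and 508, and 1271, 1059 and 809 for the 6 of basophils and mast cells, with Prss34 the most abundant in Control at 511 and Mcpt8 in IR and IR+CBD at 335 and 261. The 7 erythroid markers summed to 753, 1203 and 1194 CPM, with Car1 the most abundant at 539, 585 and 667, the 5 of megakaryocytes to 204, 81.3 and 103, with Pf4 at 160, 48.8 and 69.3, and the 8 of stem and multipotent cells to 653, 415 and 403, with Adgrl4 at 266, 138 and 138. The part of these cells in the ratios was not tested beyond the removal of the lineage gates given above. Of the cells in the gate 19.5%, 18.6% and 14.0% were also B cells. With the CPM of B cells subtracted the median log2 ratio was 0.30 for IR over Control and of 0.42 for IR+CBD over IR.

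In F13a1+ cells Mpo had ratios of 1.09 for IR over Control and of 1.11 for IR+CBD over IR, Elane 1.07 and 1.20, Prtn3 1.03 and 1.06, Ctsg 1.00 and 1.11, and Ms4a3 0.948 (0.938 to 0.958) and 1.12. IR+CBD was the highest library for each gene. With gates on scaled UMIs the IR over Control ratios were 1.06 to 1.16, above 1 for Ms4a3 as well. None (0 of 5) passed the fold rule for IR over Control, against 13.7% of 12469 genes, with a median log2 ratio of 0.04. In IR+CBD over IR 0 of 5 passed, against 8.71% of 12125 genes, with a median of 0.16. Over Control, Elane in IR+CBD reached 1.28 (1.27 to 1.28).

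**Figure D2:**
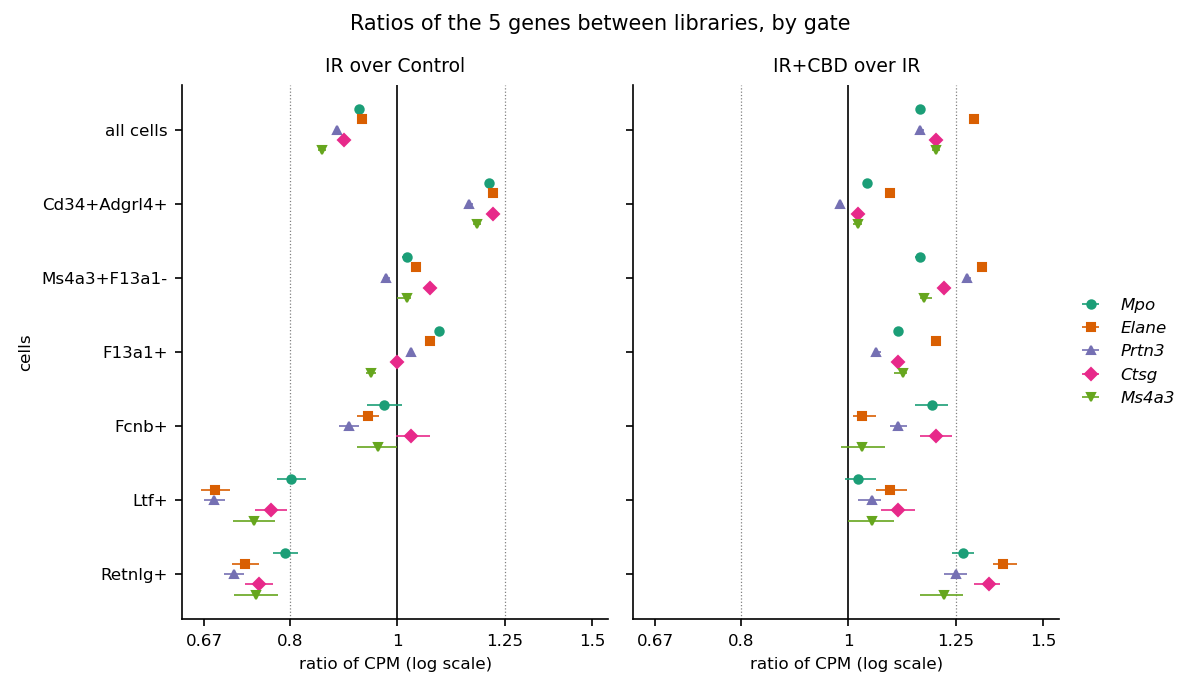
CPM ratio of each primary granule gene on a log2 scale, IR over Control and IR+CBD over IR, in all cells and the 6 gates, with 95% counting intervals. For IR over Control, with predicted doublets kept, the ratios lie above 1 in Cd34+Adgrl4+ cells and at or below 0.802 in Ltf+ and Retnlg+ cells. Without predicted doublets those of Ltf+ and Retnlg+ cells lie above 1.

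Fcnb+ cells, of which there were 224, 220 and 260, had IR over Control ratios of 0.905 to 1.03 with overlapping gates. Elane was at 2862 CPM in Control, with 2694 in IR and 2786 in IR+CBD, and Prtn3 at 3586, 3244 and 3604. IR was low for both proteases, with IR over Control ratios of 0.941 (0.920 to 0.963) and 0.905 (0.886 to 0.923). Mpo was at 1187, 1155 and 1373 CPM, and Ctsg at 1071, 1108 and 1327, so IR+CBD was the high library for both, with IR+CBD over IR ratios of 1.19 (1.15 to 1.23) and 1.20 (1.16 to 1.24). Ms4a3 was at 783, 753 and 776 CPM, and its IR over Control interval reached 1.00.

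In Fcnb+ cells 0 of 5 genes passed for IR over Control, against 25.8% of 5428 genes, with a median log2 ratio of -0.06. All genes had a median of -0.14 in this comparison, and scaling by median-of-ratios size factors adds 0.12 to every log2 ratio in it, so relative to all genes the 5 were not low. The ratios depended on the gates and the background. With each cell in 1 gate only, where 59, 47 and 72 Fcnb+ cells were left, they were above 1 for all 5, at 1.26 for Mpo, 1.20 for Elane, 1.41 for Ctsg and 1.18 for Ms4a3, so the direction turned for Elane, Prtn3, Mpo and Ms4a3, and 2 of 5 passed against 25.7% of 1948 genes. At doubled thresholds all 5 were below 1, and 3 of 5 passed against 19.4% of 3545 genes, Mpo at 0.775, Prtn3 at 0.796 and Ctsg at 0.509. With the CPM of B cells subtracted Mpo was at 1.63 and Ctsg at 1.79. As reported, the count was 0 of 5 for IR+CBD over IR as well, against 10.9% of 5019 genes, with a median of 0.15 beside 0.05. For this comparison too the settings differed. With each cell in 1 gate only Elane was at 0.893, Prtn3 at 0.972 and Ms4a3 at 0.926, so their direction turned. Ctsg passed at 1.73 with doubled thresholds, at 1.38 with gates on scaled UMIs and at 1.27 without predicted doublets, each time as 1 of 5, against 10.3%, 9.78% and 9.34% of genes, and Elane was at 0.933 under the second of these settings and at 0.996 under the third. With the CPM of B cells subtracted Mpo passed at 1.31 and Ctsg at 1.33, and with the mean of single-cell CPM Mpo passed at 1.30.

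In the neutrophil gates with predicted doublets kept the levels were lower and lay near those of B cells, from 0.760 of the B-cell level for Ctsg in Ltf+ cells of Control to 1.65 of it for Ms4a3 in Retnlg+ cells of IR+CBD. Ltf+ cells held Elane at 732 CPM in Control, with 502 in IR and 548 in IR+CBD, while B cells held 669, 507 and 562. Prtn3 was at 1364, 932 and 977 CPM in Ltf+ cells and at 1360, 955 and 930 in B cells. Control was the high library for both genes in both kinds of cell. Median counts of the 5 genes in Ltf+, Retnlg+ and B cells were 0 to 2 UMIs per cell, against medians of 132, 132 and 115 Mpo UMIs in F13a1+ cells.

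In Ltf+ cells 4 of 5 genes were lower for IR over Control, all but Mpo at 0.802 (0.779 to 0.827), against 13.6% of 8006 genes, with a median log2 ratio of -0.43 beside -0.04. In the same cells 0 of 5 passed for IR+CBD over IR, against 8.76% of 8040 genes, with a median of 0.07, but the direction depended on the setting. With each cell in 1 gate only all 5 were below 1, from 0.768 for Mpo to 0.922 for Ms4a3, and 1 of 5 passed, against 11.5% of 4771 genes. Doubled thresholds also put all 5 below 1, at 0.858 to 0.981, and without predicted doublets they were at 0.494 to 0.857, with 4 of 5 lower against 8.97% of 6033 genes. With gates on scaled UMIs Elane at 1.40 and Prtn3 at 1.27 were higher, 2 of 5, against 8.94% of 7193 genes, and without the 8 lineage gates Ctsg was higher at 1.31, which is 1 of 5, against 10.1% of 7096 genes. In Retnlg+ cells 5 of 5 were lower for IR over Control, against 16.4% of 8242 genes, with a median of -0.42 beside -0.01. Here 3 of 5 were higher for IR+CBD over IR, Mpo at 1.27, Elane at 1.38 and Ctsg at 1.34, against 9.53% of 8339 genes, with a median of 0.35 beside -0.04. B cells, read as background, had IR over Control ratios of 0.701 to 0.758 for the 5 genes. Markers of other cells moved in the same gates. The 7 erythroid markers, all with UMIs, summed to 182, 1289 and 1163 CPM in Ltf+ cells, with Car1 the most abundant in Control at 132 and Hba-a1 in IR and IR+CBD at 699 and 614. In Retnlg+ cells they summed to 465, 2174 and 1885 CPM, with Hba-a1 the most abundant at 198, 1179 and 1013. The 8 stem and multipotent markers, all with UMIs and Adgrl4 the most abundant, summed to 130, 70.6 and 119 CPM in Ltf+ and to 187, 103 and 139 in Retnlg+ cells. The part of these cells in the ratios was not tested beyond the removal of the 8 lineage gates, which include erythroid cells. That removal left 7 of the 9 IR over Control calls in Ltf+ and Retnlg+ cells past the fold rule.

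These neutrophil ratios turned without the predicted doublets, which made up 17.9%, 17.1% and 15.7% of Ltf+ cells and 17.0%, 18.3% and 18.8% of Retnlg+ cells. Mpo in Ltf+ cells then stood at 122 CPM in Control, with 187 in IR and 118 in IR+CBD, and in Retnlg+ cells at 218, 315 and 209. Elane in Ltf+ cells stood at 290, 321 and 159 CPM, and in Retnlg+ cells at 266, 399 and 204. IR was then the high library in each case, and the same held for Prtn3, Ctsg and Ms4a3 in both gates. In B cells without predicted doublets Mpo was at 308, 171 and 185 CPM, still highest in Control. In IR the neutrophil levels then ran from 1.09 of the B-cell level for Mpo in Ltf+ cells to 3.88 of it for Ms4a3 in the same cells, and Elane in Retnlg+ cells was at 2.49 of it. In IR+CBD Ms4a3 was at 3.04 of it in Ltf+ and at 2.14 in Retnlg+ cells, and in Control Mpo was at 0.396 and Ctsg at 0.333 in Ltf+ cells. So the calls in Ltf+ and Retnlg+ cells do not hold without the predicted doublets, and not under every setting that keeps them. With gates on scaled UMIs 2 of 5 were lower in Ltf+ cells for IR over Control, against 14.7% of 7129 genes, and Mpo was at 1.07 and Ctsg at 1.04. In Ltf+ cells 2 of 5 were lower with the mean of single-cell CPM and 2 of 5 with thinned cells, both without a share of all genes to compare. With the CPM of B cells subtracted Mpo was at 2.05 and Ctsg at 1.75 in Retnlg+ cells. These are ratios of small remainders. Before subtraction Mpo there was at 1.04 of the B-cell level in Control and 1.12 in IR, and Ctsg at 1.04 and 1.11.

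Counted per cell, the genes were switched on in a minority of cells. With at least 10 UMIs per 10000 taken as a high cell, a limit set after seeing the data, 25.9%, 25.5% and 30.1% of cells in Control, IR and IR+CBD were high for Mpo. These cells held 96.1%, 97.6% and 97.8% of all Mpo UMIs. For Elane 18.3%, 20% and 24.1% were high, for Prtn3 29.2%, 27.1% and 31.1%, for Ctsg 24.5%, 25.6% and 29.2%, and for Ms4a3 13.2%, 15.2% and 18.7%. IR+CBD had the largest share for each gene. At limits of 5 and 20 UMIs per 10000 the IR+CBD over IR ratio of the shares was above 1 for each gene as well, whereas the IR over Control ratio depended on the limit. It ran from 0.774 for Prtn3 to 1.14 for Ms4a3 at 5 UMIs, and at 20 UMIs it was above 1 for all 5, from 1.03 for Ms4a3 to 1.14 for Elane. So the direction turned with the limit for all but Ms4a3. Mpo was at 0.885, 0.987 and 1.08 at limits of 5, 10 and 20 UMIs, Elane at 0.992, 1.09 and 1.14, Prtn3 at 0.774, 0.929 and 1.07, and Ctsg at 0.917, 1.04 and 1.13.

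The level inside the high cells, as CPM, was also highest in IR+CBD for each gene. The median UMIs of the gene per high cell were not. They were lowest in IR+CBD for Mpo, at 144, 142 and 120 in Control, IR and IR+CBD, and for Elane, Ctsg and Ms4a3. For Prtn3 they were 182, 218 and 186, lowest in Control. Mpo in its high cells was at 4100 CPM in Control, with 4465 in IR and 4870 in IR+CBD, and Elane in its own at 4643, 5011 and 5980. The IR+CBD over IR ratio of the share of high cells was 1.18 (1.12 to 1.24) for Mpo and 1.21 (1.14 to 1.28) for Elane, and the ratio of the CPM inside them was 1.09 and 1.19. Both the share of high cells and the CPM within them were thus above IR. Of B cells 6.62%, 3.71% and 5.09% counted as high for Mpo.

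**Figure D3:**
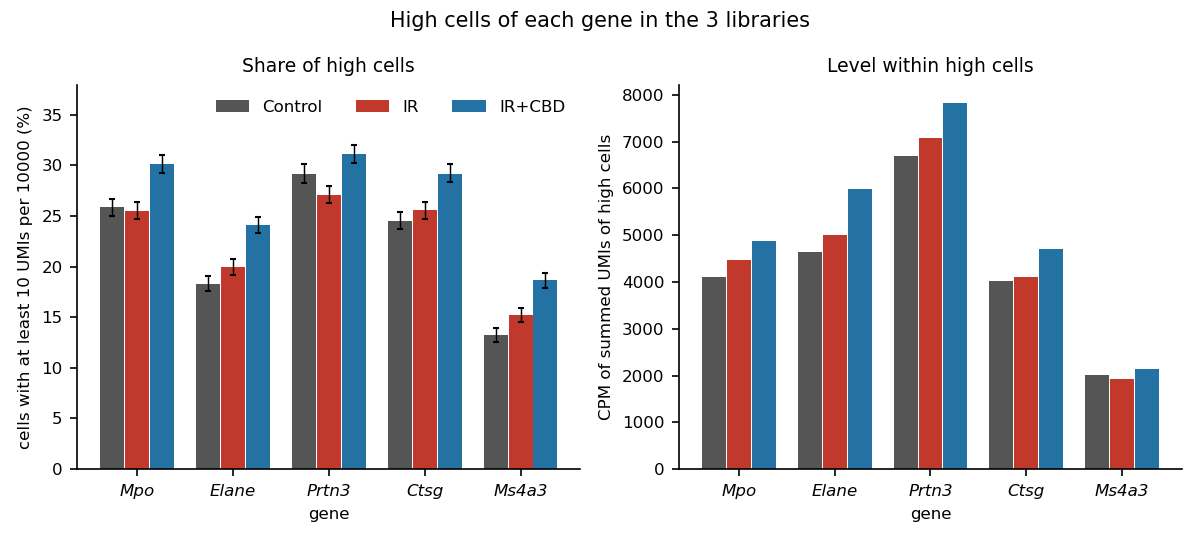
Percent of kept cells with at least 10 UMIs per 10000 of each primary granule gene in Control, IR and IR+CBD, with 95% counting intervals. IR+CBD has the highest share for each of the 5 genes, from 18.7% for Ms4a3 to 31.1% for Prtn3.

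The peroxidase and the proteases were often, but not always, high in the same cells. All 4 of Mpo, Elane, Prtn3 and Ctsg were high in 17.0%, 19.1% and 22.7% of cells in Control, IR and IR+CBD. That is 51.4%, 65.4% and 66.4% of the cells in which any of them was high, while cells high for exactly 1 of them were 7.32%, 3.14% and 4.17% of all. Joint high cells were least frequent in Control, where cells high for a single gene were most frequent.

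Over the 2080, 2032 and 2001 F13a1+ cells, log2 levels of Mpo and Ctsg had a Pearson r of 0.91, 0.93 and 0.88. For Elane and Prtn3 it was 0.86, 0.85 and 0.87, for Prtn3 and Ctsg 0.91, 0.92 and 0.91, and for Mpo and Elane 0.81, 0.81 and 0.78. Mpo and Elane were the loosest of these pairs. Cells of a library share its preparation and the depth of a cell acts on all genes in it, so these values are descriptions.

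Likeness was also measured over the 42 pools of cells made by 14 gates in 3 libraries, as Pearson's r of log2 CPM among 12468 genes. The pools share cells and libraries, and r is given as a description. For Mpo the 5 most alike genes were Ctsg at 0.976, Gstm1 at 0.963, Ms4a3 at 0.954, Prss57 at 0.908 and Igfbp4 at 0.907. For Ctsg they were Mpo at 0.976, Ms4a3 at 0.964, Gstm1 at 0.962, Hsd17b1 at 0.922 and Igfbp4 at 0.911, and for Ms4a3 they were Ctsg at 0.964, Gstm1 at 0.955, Mpo at 0.954, Hsd17b1 at 0.929 and Prss57 at 0.917. These 3 genes named one another.

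For Elane the most alike genes were Prtn3 at 0.959, Dmkn at 0.943, Gstm1 at 0.909, Ms4a3 at 0.904 and B4galt6 at 0.880, and for Prtn3 they were Elane at 0.959, Dmkn at 0.926, Gstm1 at 0.924, Pgam1 at 0.899 and Ms4a3 at 0.894. Elane and Prtn3, neighbours on chromosome 10, named each other first in this measure. Gstm1, a glutathione transferase, was among the 5 for every one of the genes.

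Promoters of the 5 genes are shown as a description, and shared regulation was not tested. All 5 matched the RefSeq promoter table, which is of build GRCm38.p6, and the 250 bases before the start are given 5′ to 3′ on the strand of the gene. They lie at chr11:87793534-87793783 (+) for Mpo, chr10:79886062-79886311 (+) for Elane, chr10:79879417-79879666 (+) for Prtn3, chr14:56102575-56102824 (-) for Ctsg and chr19:11640852-11641101 (-) for Ms4a3. Capitals mark matches on either strand to motifs known for factors of this lineage: TTGCNNAA (C/EBP), AGGAAG and GAGGAA (PU.1), TGTGGT (RUNX), and AACTG and AACGG (MYB).
Mpo: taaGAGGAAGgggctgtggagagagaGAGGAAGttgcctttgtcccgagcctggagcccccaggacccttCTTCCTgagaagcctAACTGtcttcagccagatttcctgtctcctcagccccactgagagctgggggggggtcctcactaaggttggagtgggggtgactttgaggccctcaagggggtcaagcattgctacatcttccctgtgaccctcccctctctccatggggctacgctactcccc
Elane: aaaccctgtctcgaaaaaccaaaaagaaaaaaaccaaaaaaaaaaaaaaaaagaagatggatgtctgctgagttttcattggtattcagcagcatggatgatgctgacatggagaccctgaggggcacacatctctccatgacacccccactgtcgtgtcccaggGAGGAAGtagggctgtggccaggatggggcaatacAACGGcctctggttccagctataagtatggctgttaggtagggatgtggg
Prtn3: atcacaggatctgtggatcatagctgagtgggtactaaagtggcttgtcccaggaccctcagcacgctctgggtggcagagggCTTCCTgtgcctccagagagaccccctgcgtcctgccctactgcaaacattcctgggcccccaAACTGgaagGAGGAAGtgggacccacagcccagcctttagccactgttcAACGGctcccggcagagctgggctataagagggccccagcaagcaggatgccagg
Ctsg: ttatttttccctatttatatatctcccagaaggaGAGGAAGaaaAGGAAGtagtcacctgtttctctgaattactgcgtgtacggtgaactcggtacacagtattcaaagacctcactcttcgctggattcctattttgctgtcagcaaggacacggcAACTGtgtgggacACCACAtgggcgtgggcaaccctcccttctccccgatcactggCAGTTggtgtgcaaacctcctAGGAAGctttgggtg
Ms4a3: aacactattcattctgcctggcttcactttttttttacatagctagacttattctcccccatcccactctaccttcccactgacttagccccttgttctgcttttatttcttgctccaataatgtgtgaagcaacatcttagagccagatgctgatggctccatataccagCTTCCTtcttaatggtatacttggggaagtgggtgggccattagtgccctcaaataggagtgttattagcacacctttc

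AGGAAG was in all 5 windows, and in 29.5% of the 32851 promoter windows of the same length. GAGGAA was in those of Mpo, Elane, Prtn3 and Ctsg and in 23.3% of all windows, and it overlapped AGGAAG in each of the 4 as the joined run GAGGAAG, which 10.6% of windows hold and which was looked at after the matches were seen. This run began 85 bases before the start in Elane and 95 in Prtn3, and the motif AACGG followed at 50 and 55. AACGG was in these 2 windows and in 14.5% of all. AACTG was in those of Mpo, Prtn3 and Ctsg and in 39.1% of all, TGTGGT in that of Ctsg and in 14.0%, and TTGCNNAA in 0 of the 5 and in 9.56%. A match describes letters in the window and nothing more.

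Genes around the primary granule were read from 6 lists, beside all-gene median log2 ratios of -0.05 for IR over Control and 0.00 for IR+CBD over IR in all cells. The list counts in all cells stand against the 25.8% of 15828 genes that passed for IR over Control, 2730 of these 4081 being lower, and the 9.12% of 15520 that passed for IR+CBD over IR. Of the secondary and tertiary granule genes, which follow in development, 1 of 9 was higher in IR over Control in all cells, the gelatinase Mmp9, with a median log2 ratio of 0.16. For IR+CBD over IR 1 of 9 was higher, Fcnb at 1.28, with a median of 0.13. Their median ratio was thus above 1 in both comparisons, while that of the primary granule genes was below 1 for IR over Control as reported. The latter direction turned in some settings. The 5 genes were at 1.06 to 1.15 with the mean of single-cell CPM and at 1.08 to 1.19 without the lineage gates. The difference between the lists was not tested.

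In F13a1+ cells 7 of the 9 secondary and tertiary granule genes were lower for IR over Control, against 13.7% of 12469 genes, with a median log2 ratio of -0.61 beside -0.04 for all genes, and for IR+CBD over IR 5 of 9 were higher, against 8.71% of 12125 genes, with a median of 0.33 beside 0.02. Lcn2, an iron-binding lipocalin, was at 287 CPM in Control, with 170 in IR and 231 in IR+CBD, and Ngp at 360, 236 and 311. Control was high and IR low for both with predicted doublets kept, but without them Ngp was at 78.3, 81.8 and 53.1, with IR the high library.

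These F13a1+ cells also held RNA of mature neutrophils, whose 6 markers all had UMIs there and summed to 2544, 1545 and 2484 CPM, with S100a8 the most abundant at 2386, 1405 and 2300. Of the cells 2.40%, 1.62% and 2.15% were also Ltf+. The list was therefore read again under settings chosen after seeing the data. Without predicted doublets 5 of 9 genes were lower and 2 higher for IR over Control, against 12.3% of genes, with a median of -0.34. Then 1 of 8 was higher and 5 lower for IR+CBD over IR, against 8.84%, and the median turned to -0.58. With each cell in 1 gate only 4 of 8 were lower and 1 higher for IR over Control, against 13.5%, with a median of -0.27. In that case 3 of 8 were higher and 0 lower for IR+CBD over IR, against 8.71%, with a median of -0.04. Ngp in this division was at 20.5, 18.7 and 18.9 CPM, and Lcn2 was at 92.0, 56.8 and 86.1.

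Cebpe, the C/EBP factor of late granulocyte development, was at 31.8, 22.7 and 36.4 CPM in F13a1+ cells, with ratios of 0.713 (0.668 to 0.761) and 1.61 (1.5 to 1.72). Its ratios were 0.744 and 1.61 without predicted doublets and 0.768 and 1.57 with each cell in 1 gate only.

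Of the transcription factors of granulocyte-monocyte progenitors, 6 of 15 were lower and 0 higher for IR over Control in all cells, against 25.8% of all genes, with a median of -0.17. They were Klf4 at 0.501, Meis1 at 0.572, Irf8 at 0.671, Hoxa9 at 0.718, Etv6 at 0.757 and Runx1 at 0.790. The 8 stem and multipotent markers, which include Meis1 and Hoxa9, also fell in all cells, with sums of 528, 275 and 317 CPM. Plasmacytoid dendritic cells (at least 5 Siglech UMIs) were 2.15%, 0.338% and 0.565% of cells. The part of these cells in the ratios of the factors was not tested. For IR+CBD over IR 2 of 15 were higher and 0 lower, against 9.12% of all genes, with a median of 0.10. They were Cebpe, at 49.5 CPM in Control, with 45.7 in IR and 60.0 in IR+CBD, and Gfi1, at 18.5, 17.7 and 22.5. Gfi1 represses transcription and is needed for neutrophil development. Both had the same order of libraries as the primary granule genes.

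In Ms4a3+F13a1- cells, 3 of these 15 factors fell in IR over Control, Klf4 at 0.297, Irf8 at 0.411 and Meis1 at 0.718, while 0 rose, a share close to the 20.4% of 11982 genes. For IR+CBD over IR 2 of 15 rose, Klf4 at 1.36 and Gfi1 at 1.28, and 0 fell, against 6.60% of 11745 genes. Klf4 and Irf8 are factors of the monocyte branch. The monocyte markers, which include both, summed in this gate to 407, 391 and 372 CPM in Control, IR and IR+CBD. The B-cell markers there summed to 855, 561 and 586 CPM. The part of these cells in the ratios of the factors was not tested.

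Few of the genes that process, sort or fold granule proteins passed in all cells. Of 12, Ctsc fell in IR over Control in all cells, with a list median of -0.13, and fell again in IR+CBD over IR, with a list median of 0.00. Ctsc, which encodes the dipeptidyl peptidase that activates the granule serine proteases, was at 98.8 CPM in Control, with 68.9 in IR and 53.6 in IR+CBD. Its ratios were 0.698 and 0.777, so in all cells it was lowest in IR+CBD, where Elane, Prtn3 and Ctsg were highest. Monocyte markers in all cells also summed lowest there, at 1245, 1162 and 982 CPM in Control, IR and IR+CBD. The part of the cell mixture in the Ctsc ratios was not tested. In Fcnb+ cells 10 of the 11 genes tested from this list fell in IR over Control, against 25.8% of 5428 genes, of which 1168 were lower, with a median of -0.42 beside -0.14 for all genes. With size factors, which add 0.12 to each log2 ratio here, 3 of 11 were lower, against 18.7% of genes, and with each cell in 1 gate only 1 of 10 was, against 25.7%. Without predicted doublets 7 of 10 were lower, against 18.0%, with a median of -0.38 beside -0.10. These 3 settings were chosen for this list after seeing the data. Marker sums moved in Fcnb+ cells too. Neutrophil precursor markers summed to 66465, 83608 and 74602 CPM, with Camp the most abundant at 32866, 42440 and 38437. Mature neutrophil markers summed to 104165, 118531 and 118390 CPM. Sums were 240, 429 and 350 CPM for erythroid markers and 71.3, 113 and 6.83 for those of basophils and mast cells. The part of these cells in the ratios of the list was not tested.

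Of the granule content and lysosomal genes, 17 of 19 had enough UMIs in all cells. For IR over Control Cst7, which encodes a cystatin that inhibits cathepsins, was lower, at 109, 81.3 and 94.1 CPM, with a list median of -0.08. For IR+CBD over IR Cd63, a membrane protein of primary granules and lysosomes, was higher, at 203, 170 and 221 CPM, with a list median of 0.01. Most of the list passed in neither comparison.

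Protease inhibitors moved in both directions. For IR over Control 2 of 13 tested were higher, Stfa1 at 1.62 and Serpina3f at 2.52, and 2 lower, Wfdc17 at 0.417 and Serpinb10 at 0.484, with a median of -0.02. For IR+CBD over IR 6 were higher and 2 lower, with a median of 0.19. The stefins, which inhibit cysteine proteases, had the highest of these ratios, 1.56 for Stfa1, 2.87 for Stfa2 and 3.08 for Stfa3. The lower ones were Serpina3g at 0.751 and Serpina3f at 0.544.

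The list of genomic neighbours and paralogs had calls in both directions, and its difference from the primary granule genes was not tested. For IR over Control 3 of 13 tested were higher and 3 lower, with a median of -0.06, and for IR+CBD over IR 1 of 14 was higher and 5 lower, with a median of -0.15. The paralogs of Ms4a3 among the 5 were Ms4a4c at 0.576, Ms4a6b at 0.631, Ms4a6d at 0.633 and Ms4a6c at 0.745, whereas Ms4a3 itself was at 1.20. Ms4a6c is also a monocyte marker, and the 8 monocyte markers, all with UMIs, summed to 1245, 1162 and 982 CPM in all cells, with Ly6c2 the most abundant at 450, 531 and 428. The part of monocytes in the ratios of these paralogs was not tested. The remaining one of the 5 was the mast cell chymase Cma1 at 0.778, and Gzmb, a serine protease of lymphocyte granules, was the higher one at 1.30.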

How the data were processed

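The UMI counts per gene and cell are those the authors deposited as filtered matrices. The study's methods name Cell Ranger 4.0, while the matrix headers name 7.0.1, and the build is given as GRCm39. Version 7.0.1 counts introns by default, and whether the UMIs here include introns is not known. Cells with at least 200 genes and at most 5% mitochondrial UMIs were kept, and counts were summed per library or gate and scaled to CPM. Intervals (95%) are exact Poisson for CPM, exact conditional binomial for ratios and exact binomial for shares. Doublets were predicted with Scrublet in scanpy 1.11.5, taking 0.8% of cells per 1000 cells as doublets. Sums and intervals used scipy 1.17.1 and numpy 2.4.6, tables pandas 2.3.3, all under Python 3.11.15, and figures matplotlib 3.10.9. The members and lists were chosen with earlier results of these data known. Genes named are the 5 members, the genes of 6 lists that a count names, and the 5 genes most alike to each member. Alternatives changed doublets, filters, gates, scaling, depth, free RNA and cell composition. A planned comparison of protein sequences was left out because no protein table was available.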

Additional observations from a re-analysis of the deposited data

Results flagged for a closer look

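The primary granule genes differed in direction between gates for IR over Control. Their median ratio was 1.21 in Cd34+Adgrl4+ cells, where all 5 genes were above 1. It was 0.743 in Ltf+ cells and 0.746 in Retnlg+ cells, where all 5 were below 1. The difference between the gates was not tested, each gate is 1 library per group, and in Ltf+ and Retnlg+ cells the direction turns without predicted doublets.

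Barcodes with at least 200 genes but above the mitochondrial limit of 5% held more RNA of 4 of the genes in IR+CBD than in Control. Of these barcodes, those up to 10% entered only the setting with that limit. Mpo was at 4422 CPM in IR+CBD, 3455 in Control and 2290 in IR. Elane was at 1210, 1107 and 662 CPM in the same order, Prtn3 at 2240, 2056 and 1185, and Ctsg at 2253, 2117 and 1207. IR was the lowest library for each, as in the kept cells, and the numbers of barcodes were 1179, 1482 and 1356.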

How the results depend on the processing

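No paired analysis was possible because each group is 1 library. Depth limits the counting intervals, such as 0.711 to 0.776 for Ms4a3 in Ltf+ cells and 0.921 to 1.00 in Fcnb+ cells for IR over Control. Where a value below differs from the reported one, the cause was not tested. Choices made after seeing the data are the settings without shared barcodes, without the 8 lineage gates and with B cells without doublets subtracted, as well as all settings for the lists of genes.

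For all cells the median log2 ratio of IR over Control, reported as -0.16, was -0.15 without predicted doublets, 0.12 with the mean of single-cell CPM, -0.12 with size factors, 0.02 with B cells subtracted, 0.14 with thinned cells, 0.20 without the lineage gates, -0.06 with B cells without doublets subtracted and 0.08 with gates weighted by Control shares. That of IR+CBD over IR, reported as 0.26, was 0.24 without predicted doublets, 0.38 with the mean of single-cell CPM, 0.28 without the 50 most abundant genes in the total, 0.34 with B cells subtracted, 0.40 with thinned cells, 0.16 without the lineage gates, 0.27 with B cells without doublets subtracted and 0.19 with weighted gates.

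In Ms4a3+F13a1- cells the median of IR over Control, reported as 0.04, was 0.11 with gates on scaled UMIs, 0.06 with each cell in 1 gate, 0.48 with the mean of single-cell CPM, 0.06 with size factors, 0.30 with B cells subtracted, 0.53 with thinned cells, 0.28 without the lineage gates and 0.15 with B cells without doublets subtracted. That of IR+CBD over IR, reported as 0.32, was 0.30 without predicted doublets, 0.23 with gates on scaled UMIs, 0.26 with doubled thresholds, 0.37 with each cell in 1 gate, 0.38 with the mean of single-cell CPM, 0.35 with size factors, 0.34 without the 50 most abundant genes, 0.42 with B cells subtracted, 0.36 with thinned cells, 0.23 without the lineage gates and 0.35 with B cells without doublets subtracted.

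At 1.5-fold 0 members passed for IR over Control or IR+CBD over IR in all cells or the 6 gates, and fewer genes passed. IR over Control gave 1742 genes in all cells, 1053 in Cd34+Adgrl4+, 933 in Ms4a3+F13a1-, 612 in F13a1+, 261 in Fcnb+, 304 in Ltf+ and 411 in Retnlg+ cells. IR+CBD over IR gave 381, 267, 190, 276, 94, 152 and 196 in the same order.

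Among called ratios of the 5 genes, those whose direction turned were in Ltf+ and Retnlg+ cells. Ratios that were not called turned as well. In all cells IR over Control was above 1 for all 5 with the mean of single-cell CPM, at 1.06 to 1.15, with thinned cells, at 1.06 to 1.17, without the lineage gates, at 1.08 to 1.19, and with weighted gates, at 1.02 to 1.09. In Fcnb+ cells it was above 1 for all 5 with each cell in 1 gate, at 1.18 to 1.41, and below 1 for all 5 with doubled thresholds, at 0.509 to 0.829. Without predicted doublets the IR over Control ratio in Ltf+ cells was 1.11 for Elane, 1.05 for Prtn3, 1.69 for Ctsg and 1.10 for Ms4a3, and in Retnlg+ cells 1.45 for Mpo, 1.5 for Elane, 1.28 for Prtn3, 1.40 for Ctsg and 1.33 for Ms4a3. The IR+CBD over IR ratio in Retnlg+ cells was then 0.664 for Mpo, 0.511 for Elane and 0.632 for Ctsg. For IR over Control Ctsg in Ltf+ cells was 1.04 with gates on scaled UMIs and 1.03 with B cells without doublets subtracted, Ms4a3 in Ltf+ cells was 1.01 with thinned cells, and with B cells subtracted Mpo was 2.05 and Ctsg 1.75 in Retnlg+ cells. Those Retnlg+ values are ratios of small remainders, since the levels before subtraction lay near those of B cells. Subtracting B cells gave no value for Mpo, Elane, Prtn3 and Ctsg in Ltf+ cells.

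Of 29 single-gene ratios per comparison, 29 of IR over Control and 27 of IR+CBD over IR moved by less than their interval at a mitochondrial limit of 10%, and 29 of each with at least 1000 genes or without shared barcodes. With the mean of single-cell CPM 27 IR over Control ratios moved, all upwards.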

Other observations

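Primary granule genes were also found in gates of other lineages. Basophils and mast cells (at least 5 Prss34 UMIs) numbered 143, 100 and 94 in Control, IR and IR+CBD. They held Ctsg at 3176, 3663 and 3234 CPM and Mpo at 2587, 2168 and 1834, whereas Elane was at 593, 588 and 822. Without predicted doublets 123, 82 and 75 cells were left, with Ctsg at 3623, 3862 and 3312 CPM, Mpo at 2844, 2281 and 1598, and Elane at 314, 523 and 271. With or without doublets, Ctsg stood above its level in all cells of the same library in each group, Mpo did so in Control and IR but not in IR+CBD, and Elane in none.

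Eosinophil-lineage cells (at least 2 Epx UMIs) numbered 60, 46 and 43. They held Mpo at 3996, 4576 and 3899 CPM, Ctsg at 2294, 2689 and 2818, and Ms4a3 at 1136, 1475 and 1470, but 53.5% of them in IR+CBD were predicted doublets. Without these, 53, 37 and 20 cells were left, with Mpo at 4196, 4592 and 3154 CPM, Ctsg at 2440, 3007 and 2480, and Ms4a3 at 1166, 1623 and 1167. Erythroid cells held Mpo at 265, 278 and 311 CPM with predicted doublets kept and at 78.4, 63.1 and 46.1 without them, where IR+CBD was lowest instead of highest.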
